A study of Mus musculus with 10 samples.

Results

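Tet3, Tdg, Gadd45b, Gadd45g and Idh2 are genes of DNA demethylation, the removal of methyl groups from cytosine. They were chosen by name, with earlier results of these data known. All 5 were found, once each, in the upper part of the 20494 lines of the deposited table, where a symbol stands beside its own value. The material was a mouse embryonic stem cell line of the strain label C57BL6X129S6F1, with 10 RNA-seq libraries, 2 in each of 5 culture conditions. LCDM, A2iL, 2iL-F and 2iL used the serum-free medium N2B27 with 1000 IU mLIF, the mouse leukaemia inhibitory factor that sustains self-renewal, and 3 µM of the GSK3 inhibitor Chir99021. LCDM added 2 µM of a compound written Dim and 2 µM of one written Mih. A2iL added 1.5 µM CGP77675, an inhibitor of Src kinases. 2iL-F and 2iL both added 1 µM PD0325901, an inhibitor of the kinase MEK, and so had 1 medium under different feeder labels. SL was a KO-DMEM medium with 15% FBS and the same mLIF, and with no kinase inhibitor. By the labels, 2iL-F lacked feeder cells and the other 4 conditions had them. All libraries came from a single line, and nothing says that the 2 libraries of a condition were separate cultures. The p-values weigh a difference between conditions against the spread between libraries of the same condition. That spread was pooled over the 5 conditions, with information from other lines, and may be only technical.

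In active demethylation, TET enzymes oxidise 5-methylcytosine stepwise, using 2-oxoglutarate as a cosubstrate, and the glycosylase TDG cuts out the most oxidised forms. Base excision repair then puts back an unmethylated cytosine. GADD45 proteins are small stress-induced adaptors without enzyme activity that have been linked to this removal as well as to p38 and JNK kinase signalling and to cell cycle arrest. Mitochondrial isocitrate dehydrogenase, encoded by Idh2, makes 2-oxoglutarate with NADP as its electron acceptor. Embryonic stem cells kept with inhibitors of MEK and GSK3 are known for low DNA methylation, in which less de novo methylation and weaker maintenance are known to have a large part.

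The values are TPM (transcript abundances scaled to a fixed library total), which correct for transcript length and so allow levels of different genes to be compared within a library. They hold no information on read number, and depth is unknown. Replicate libraries had a Pearson correlation across genes of 0.9925 to 0.9939. Of 11 listed embryonic stem cell markers 6 lay in the usable lines, Nanog and Esrrb among them, and all 6 had at least 1 TPM in every library, with a sum of 522 to 1761 TPM. Fibroblast markers, which feeder cells express, went against the feeder labels. The summed TPM of 15 such markers was 619 to 635 in LCDM, 1892 to 1956 in A2iL, 3220 to 3386 in 2iL-F, 391 to 426 in 2iL and 2753 to 2913 in SL. Acta2 made up 875 and 907 TPM of the SL sums. In both libraries labelled 2iL, 9 of the 15 were under 0.1 TPM, of which Acta2, Bgn, Dcn, Fap and Lox were listed at 0. In those libraries Fn1, which stem cells and endoderm also express, made up 386 and 420 TPM of the sum. The names 2iL-F and 2iL therefore mean the libraries that carry those labels. In bulk RNA, fewer cells of a type and less RNA per cell cannot be told apart, and what part fibroblast RNA has in the differences between conditions was not tested.

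The 5 genes did not move as a group. Idh2 was higher in every serum-free condition than in SL, and Tdg was lower in every one. Gadd45b was highest in 2iL and lowest in A2iL. Gadd45g was highest in SL and lowest in LCDM. Tet3 was low throughout and lowest in A2iL and LCDM. Calls required an adjusted p below 0.05 (limma, Benjamini-Hochberg), with differences given on the log2(TPM + 1) scale with their standard errors, which understates changes of low genes. In the test for any difference among the conditions all 5 were called, as were 90.1% of the 14578 lines tested.

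**Figure D1:**
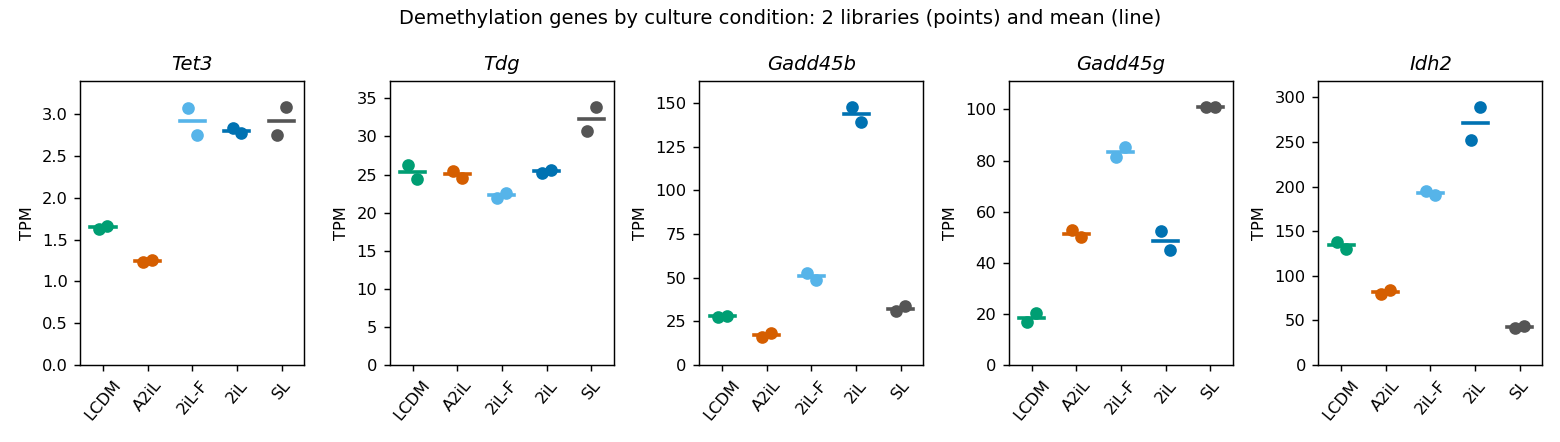
TPM of each gene (vertical axes, starting at 0, with a scale of their own) in LCDM, A2iL, 2iL-F, 2iL and SL. Points are the 2 libraries of a condition and lines their mean; Gadd45b lies at 139 to 148 TPM in 2iL and at 16.0 to 18.1 in A2iL, and Idh2 is lowest in both SL libraries.

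Against SL, 5 of 5 genes were called in LCDM (1 higher, 4 lower), 5 in A2iL (1 higher, 4 lower), 4 in 2iL-F (2 higher, 2 lower) and 4 in 2iL (2 higher, 2 lower). The shares of all lines called were 65.9% in LCDM (32.2% higher, 33.7% lower), 53.8% in A2iL (21.9% higher, 31.9% lower), 65.4% in 2iL-F (28.1% higher, 37.3% lower) and 77.7% in 2iL (36.7% higher, 40.9% lower). With so many lines called, a call alone sets none of these genes apart, and the sizes carry more information. These 4 comparisons share the SL libraries. For A2iL against SL, 40.7% of called lines were higher, and 51.4% after median-of-ratios scaling. The span between the highest and lowest condition mean was larger for Gadd45b than for 95.2% of tested lines, for Idh2 than for 93.4%, for Gadd45g than for 91.2%, for Tet3 than for 47.7% and for Tdg than for 25.7%. Since the genes were chosen with earlier results of these data known, these shares are descriptions.

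**Figure D2:**
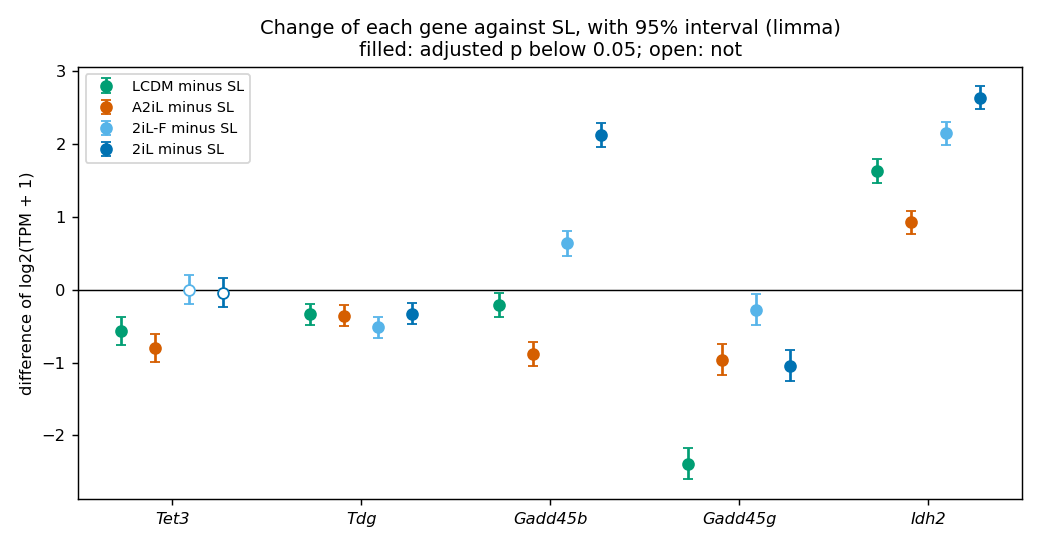
Difference of log2(TPM + 1) of each gene (horizontal axis) between LCDM, A2iL, 2iL-F or 2iL and SL, with 95% intervals from limma; filled points have an adjusted p below 0.05. Idh2 lies above 0 in all 4 comparisons, from 0.92 to 2.63, and Gadd45g below 0, from -2.39 to -0.27.

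Tet3 encodes the TET dioxygenase best known from the zygote and from neurons, where it oxidises 5-methylcytosine. It had 1.63 and 1.66 TPM in LCDM, 1.23 and 1.26 in A2iL, 3.08 and 2.75 in 2iL-F, 2.83 and 2.78 in 2iL, and 2.75 and 3.09 in SL. All LCDM and A2iL libraries lay below all others, while 2iL-F, 2iL and SL overlapped. What share of all lines separates in this way was not counted. In A2iL the mean was 0.427 times that of SL (-0.80 ± 0.09, adjusted p = 9.16e-05, limma), and in LCDM 0.564 times (-0.57 ± 0.09, adjusted p = 0.00044). The 2iL-F libraries differed from SL by 0.00, with a 95% interval of -0.20 to 0.19, and the 2iL libraries by -0.04, with an interval of -0.24 to 0.16. A2iL was lower than 2iL-F (-0.80 ± 0.09, adjusted p = 0.000107), with fibroblast marker sums of 1892 to 1956 TPM in A2iL and 3220 to 3386 in 2iL-F.

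Between LCDM and A2iL, Tet3 was higher in LCDM by 0.24 ± 0.09 (adjusted p = 0.0452). This call was lost with any of the 4 libraries left out (adjusted p = 0.118 to 0.142) and with median-of-ratios scaling (adjusted p = 0.0845). For LCDM against A2iL, 57.6% of called lines were higher, and 47.6% after that scaling. Averaged over libraries Tet3 had 2.30 TPM, above 19.5% of tested lines. The gene (chromosome 6, 83362373 to 83459084, minus strand, mm10, GENCODE vM21) shares 6568 bases with B230319C09Rik on the opposite strand, and counting by strand is not stated, so reads of both cannot be told apart. The genes most like Tet3 over the 10 libraries on the log2 scale were Csrp1 (r = 0.949), Slc46a1 (r = 0.939) and Smyd2 (r = 0.932). Csrp1, an actin-associated LIM protein, averaged 64.2 TPM in LCDM, 66.0 in A2iL, 167 in 2iL-F, 167 in 2iL and 222 in SL.

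Tdg encodes thymine DNA glycosylase, which removes 5-formylcytosine and 5-carboxylcytosine. It had 26.3 and 24.4 TPM in LCDM, 25.5 and 24.5 in A2iL, 21.9 and 22.6 in 2iL-F, 25.3 and 25.6 in 2iL, and 30.7 and 33.9 in SL. Both SL libraries lay above the other 8, and both 2iL-F libraries lay below all others. Such separation was not counted over all lines. Against SL it changed by -0.34 ± 0.06 in LCDM (adjusted p = 0.00142), -0.36 ± 0.06 in A2iL (adjusted p = 0.00159), -0.52 ± 0.06 in 2iL-F (adjusted p = 0.000116) and -0.33 ± 0.06 in 2iL (adjusted p = 0.00115, all limma), a fall in each. The highest condition mean was 1.45 times the lowest. LCDM, A2iL and 2iL were not told apart, with 95% intervals of -0.13 to 0.16 for LCDM minus A2iL, -0.15 to 0.14 for LCDM minus 2iL and -0.17 to 0.12 for A2iL minus 2iL.

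Tdg was lower in 2iL-F than in 2iL (-0.18 ± 0.06, adjusted p = 0.031), a call lost with any of the 4 libraries left out (adjusted p = 0.0598 to 0.135). LCDM was higher than 2iL-F (0.18 ± 0.06, adjusted p = 0.0368), but not without LCDM replicate 3, 2iL-F replicate 3 or 2iL-F replicate 5 (adjusted p = 0.211, 0.154 and 0.0774) nor with median-of-ratios scaling (adjusted p = 0.146), and A2iL against 2iL-F did not pass (0.16 ± 0.06, adjusted p = 0.0665). The gene (chromosome 10, 82629828 to 82650799, plus strand) has processed pseudogenes nearly identical to its transcript, Tdg-ps at 98.7% over 2968 bases, Gm9855 at 99.2% over 1194 and Gm5597 at 99.3% over 1193. Reads can be split between such copies, and 367 bases are shared with Glt8d2 on the opposite strand, so the level of Tdg is uncertain. Thumpd1 (r = 0.974), G2e3 (r = 0.967) and Abl2 (r = 0.959) had the profiles most like it. G2e3, a ubiquitin ligase, averaged 11.1 TPM in LCDM, 10.5 in A2iL, 7.89 in 2iL-F, 11.0 in 2iL and 18.9 in SL.

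Around TET and TDG, 17 of 23 listed genes of active demethylation and base excision lay in the usable lines and all 17 were tested, Tet3 and Tdg among them. In LCDM 10 were higher than in SL and 3 lower, with a median change of 0.32 against 0.00 over all lines. In A2iL 8 were higher and 5 lower (median 0.17 against -0.07), in 2iL-F 9 and 3 (0.14 against -0.08), and in 2iL 7 and 5 (0.12 against -0.04). Among the glycosylases Mbd4, Smug1, Neil1, Neil2 and Ogg1 rose against SL in all 4 media (Neil2 by 0.54 to 1.83 and Ogg1 by 0.29 to 1.33). Neil2 was near the floor, with 1.29 and 0.728 TPM in SL and 1.60 and 2.21 in 2iL-F. Ung, the main uracil glycosylase, rose in LCDM (0.49), 2iL-F (0.57) and 2iL (0.61) and did not pass in A2iL (0.04, adjusted p = 0.525, limma). Mbd4, which like TDG removes thymine from T:G mispairs, had 7.46 ± 0.336 TPM in LCDM, 7.09 ± 1.14 in A2iL, 8.35 ± 0.301 in 2iL-F, 18.2 ± 0.759 in 2iL and 4.95 ± 0.490 in SL (SD, n = 2 each). Smug1, a uracil glycosylase that also acts on 5-hydroxymethyluracil, had 6.13 ± 0.131 TPM in LCDM, 4.68 ± 0.416 in A2iL, 5.45 ± 0.785 in 2iL-F, 9.37 ± 0.213 in 2iL and 3.47 ± 0.115 in SL. Both rose against SL in each serum-free condition, Mbd4 by 0.44 to 1.69 and Smug1 by 0.34 to 1.21 on the log2 scale, whereas Tdg fell in each.

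NEIL glycosylases, which can act after TDG in this pathway, were also higher, with Neil1 at 0.91 ± 0.10 in LCDM, 0.66 ± 0.10 in A2iL, 0.53 ± 0.10 in 2iL-F and 1.07 ± 0.10 in 2iL. Downstream enzymes were mixed. Apex1, the endonuclease that cuts the abasic site, had 289 ± 8.97 TPM in LCDM, 308 ± 3.07 in A2iL, 359.9 ± 6.69 in 2iL-F, 224 ± 3.62 in 2iL and 335 ± 3.53 in SL, and it fell against SL in LCDM (-0.22), A2iL (-0.12) and 2iL (-0.58) but did not pass in 2iL-F (0.10). Lig3, the ligase that seals the nick, fell in A2iL (-0.49), 2iL-F (-0.29) and 2iL (-0.35), and did not pass in LCDM (-0.12). These changes were not checked with median-of-ratios scaling, which shifted all lines by 0.084 in A2iL against SL. Tet1 and Tet2 are not analysed here, because their symbols lie in lines where symbols and values are offset.

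Gadd45b encodes one of the GADD45 adaptors. It had 27.3 and 28.3 TPM in LCDM, 16.0 and 18.1 in A2iL, 52.8 and 48.5 in 2iL-F, 148 and 139 in 2iL, and 31.0 and 33.5 in SL. No condition overlapped with another, and the 2iL libraries stood far above the rest. How many of all lines lack overlap in this way was not counted. The mean in 2iL was 4.45 times that in SL (2.12 ± 0.07, adjusted p = 2.24e-08, limma), a larger change than that of 91.5% of tested lines. In 2iL-F it was 1.57 times the SL mean (0.64 ± 0.07, adjusted p = 8.35e-05), and in A2iL 0.529 times (-0.88 ± 0.07, adjusted p = 2.08e-05). LCDM was lower than SL (-0.21 ± 0.07, adjusted p = 0.034), a call lost without SL replicate 5, LCDM replicate 3 or LCDM replicate 5 (adjusted p = 0.182, 0.138 and 0.0707) and with median-of-ratios scaling (adjusted p = 0.0562).

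Gadd45g encodes another adaptor of the same family. It had 16.9 and 20.2 TPM in LCDM, 52.7 and 50.1 in A2iL, 81.3 and 85.3 in 2iL-F, 52.5 and 44.8 in 2iL, and 101 and 101 in SL. LCDM lay below all other conditions and SL above them, and only A2iL and 2iL overlapped. As for Gadd45b, the share of all lines with such separation was not counted. In LCDM the mean was 0.184 times that of SL (-2.39 ± 0.09, adjusted p = 1.21e-07, limma), larger in size than the change of 98.1% of tested lines. In 2iL it was 0.482 times (-1.04 ± 0.09, adjusted p = 8.98e-06) and in A2iL 0.509 times (-0.96 ± 0.09, adjusted p = 4.87e-05). A2iL and 2iL were not told apart, with a difference of 0.08 and a 95% interval of -0.13 to 0.29. For 2iL-F the difference from SL was -0.27 ± 0.09 (adjusted p = 0.0279), and it was lost without any of the 4 libraries (adjusted p = 0.06 to 0.126) and with median-of-ratios scaling (adjusted p = 0.152).

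The balance within the pair turned over between media. Gadd45b over Gadd45g was 1.61 and 1.40 in LCDM, 0.304 and 0.362 in A2iL, 0.649 and 0.569 in 2iL-F, 2.82 and 3.11 in 2iL, and 0.307 and 0.332 in SL. Gadd45b exceeded Gadd45g in all libraries of LCDM and 2iL, the 2 conditions with the lowest fibroblast marker sums, and was below it in all others. LCDM and 2iL reached this in different ways, since LCDM held 0.862 times the Gadd45b and 0.184 times the Gadd45g of SL, and 2iL 4.45 and 0.482 times. Their sum was 44.2 and 48.4 TPM in LCDM, 68.7 and 68.2 in A2iL, 134 and 134 in 2iL-F, 200.2 and 184 in 2iL, and 132 and 134 in SL. Of the fibroblast marker sums, Fn1, which stem cells also express, made up 280 to 283 TPM in LCDM and 386 to 420 in 2iL. The ratio was not tested, and what part fibroblast RNA has in it was not tested.

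**Figure D3:**
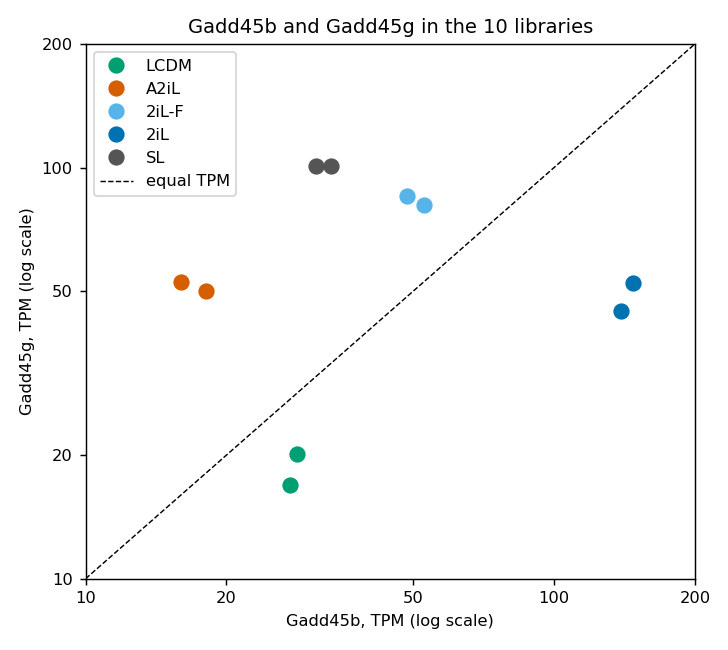
Gadd45b (horizontal) against Gadd45g (vertical) in TPM on log scales, each point 1 of the 10 libraries; the dashed line marks equal TPM. Libraries of 2iL and LCDM lie on the Gadd45b side of the line, those of A2iL, 2iL-F and SL on the Gadd45g side.

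The promoters of this pair are shown because the 2 genes differ so much in the same libraries. Each is the 250 bases before the RefSeq transcription start (GRCm38.p6, the same assembly as mm10), 5′ to 3′ on the gene's strand, chr10:80929841-80930090 (plus strand) for Gadd45b and chr13:51846425-51846674 (plus strand) for Gadd45g. Capitals mark the E-box CACGTG, the CCAAT box CCAAT and the TATA box TATAAA, searched on both strands.
Gadd45b: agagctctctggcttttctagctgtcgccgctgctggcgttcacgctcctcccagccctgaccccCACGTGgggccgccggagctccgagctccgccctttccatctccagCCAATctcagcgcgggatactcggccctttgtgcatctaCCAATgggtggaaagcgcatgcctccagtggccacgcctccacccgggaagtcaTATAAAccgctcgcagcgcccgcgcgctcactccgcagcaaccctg
Gadd45g: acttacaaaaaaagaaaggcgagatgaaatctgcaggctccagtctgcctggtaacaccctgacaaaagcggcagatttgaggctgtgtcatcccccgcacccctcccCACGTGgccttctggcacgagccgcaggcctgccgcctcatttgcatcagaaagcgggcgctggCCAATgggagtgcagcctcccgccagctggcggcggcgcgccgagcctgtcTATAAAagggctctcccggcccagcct
Both windows hold the E-box, then CCAAT, then TATAAA in that order. The E-box begins 185 bases before the start in Gadd45b and 142 in Gadd45g, and TATAAA 46 bases before it in Gadd45b and 27 in Gadd45g. Gadd45b has CCAAT at 139 and 100 bases before the start and Gadd45g at 78. These distances are from the RefSeq starts and depend on the start used. In GENCODE, Gadd45b begins at 80930073, inside its window, and Gadd45g at 51846678, past the end of its window. The difference between the genes in the distance of TATAAA is therefore not established. Of 32851 mouse promoter windows of the same length, 6.02% hold the E-box, 12.4% TATAAA and 33.85% CCAAT on either strand. Gadd45g also holds TGATGNAAN, the form bound by C/EBP-ATF dimers, on the opposite strand 102 bases before the start, as do 3.44% of windows, and Gadd45b has no match to it in this window. Gadd45b has 22 CpG dinucleotides and Gadd45g 16, against a median of 6. A match is a description of letters, not of a bound site.

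Gadd45b (chromosome 10, 80930073 to 80932204) and Gadd45g (chromosome 13, 51846678 to 51848468) are both on the plus strand, and no annotated gene overlaps either. Among the genes closest to Gadd45b over the 10 libraries were Rab11fip1 (r = 0.993) and Kctd15 (r = 0.989). Rab11fip1, an effector of the recycling GTPase RAB11, averaged 5.58 TPM in LCDM, 3.84 in A2iL, 10.7 in 2iL-F, 29.7 in 2iL and 7.93 in SL. Closest to Gadd45g were Tpbg (r = 0.982), Pmm2 (r = 0.978) and Afap1 (r = 0.976). Tpbg, a membrane glycoprotein also called 5T4, averaged 12.5 TPM in LCDM, 24.2 in A2iL, 31.4 in 2iL-F, 20.7 in 2iL and 32.7 in SL. Over the same libraries Gadd45b and Gadd45g had r = 0.122 with each other.

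Among listed partners of GADD45 and stress genes, 17 of 24 were in the usable lines and tested, the pair included. Against SL, 5 were higher and 8 lower in LCDM, 6 and 4 in A2iL, 8 and 5 in 2iL-F, and 6 and 5 in 2iL, with medians of -0.20, -0.05, 0.12 and -0.06 against 0.00, -0.07, -0.08 and -0.04 over all lines. Ddit3, a transcription factor of the integrated stress response that encodes CHOP, had 19.8 ± 0.476 TPM in LCDM, 29.8 ± 2.45 in A2iL, 42.2 ± 1.61 in 2iL-F, 96.8 ± 11.8 in 2iL and 22.4 ± 1.22 in SL. Like Gadd45b, it was highest in 2iL and next in 2iL-F, but in A2iL it rose against SL (0.40) where Gadd45b fell. Trib3, a pseudokinase of the same response, rose in every serum-free condition, by 1.79 to 2.79. Ier3, an immediate early gene, had 15.5 ± 0.999 TPM in LCDM, 118 ± 3.13 in A2iL, 78.0 ± 0.671 in 2iL-F, 8.98 ± 0.449 in 2iL and 81.2 ± 0.0627 in SL. Cdkn1a, the p53-induced cell cycle inhibitor p21 that GADD45 proteins bind, had 173 ± 8.58 TPM in LCDM, 523 ± 7.47 in A2iL, 582 ± 0.683 in 2iL-F, 433 ± 44.8 in 2iL and 486 ± 2.99 in SL. Against SL it fell in LCDM (-1.49) and 2iL (-0.17), as Gadd45g did, but rose in 2iL-F (0.26) and did not pass in A2iL (0.11), where Gadd45g fell. Map3k4, the kinase that GADD45 proteins activate, rose in LCDM (0.66) and 2iL (0.58) and fell in A2iL (-0.16) and 2iL-F (-0.17). Median-of-ratios scaling shifted all lines by 0.084 in A2iL against SL and by 0.0799 in 2iL-F against SL. The small falls of Map3k4 were not checked with that scaling. Gadd45a is not analysed here, for the reason given for Tet1.

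Idh2 encodes the mitochondrial enzyme that makes 2-oxoglutarate from isocitrate. It had 138 and 131 TPM in LCDM, 80.0 and 84.3 in A2iL, 195 and 191 in 2iL-F, 253 and 289 in 2iL, and 41.5 and 44.1 in SL. No condition overlapped with another, and all 8 serum-free libraries were above both SL libraries. The share of all lines with such separation was not counted. The mean was 3.14 times that of SL in LCDM (1.63 ± 0.07, adjusted p = 1.98e-07), 1.92 times in A2iL (0.92 ± 0.07, adjusted p = 1.13e-05), 4.51 times in 2iL-F (2.15 ± 0.07, adjusted p = 4.11e-08) and 6.33 times in 2iL (2.63 ± 0.07, adjusted p = 4.22e-09, all limma). Each of these was larger in size than 89.7% to 96.6% of the changes in its comparison. Every step in the order 2iL, 2iL-F, LCDM, A2iL and SL passed, the smallest being 2iL-F minus 2iL at -0.49 ± 0.07 (adjusted p = 0.00034) and LCDM minus 2iL-F at -0.52 ± 0.07 (adjusted p = 0.000266). Both PD0325901 conditions were above both N2B27 conditions without it. Those without it held Dim and Mih (LCDM) or CGP77675 (A2iL), so these compounds cannot be told apart from the lack of PD0325901. Fibroblast marker sums were the lowest of the series in 2iL and the highest in 2iL-F, and their part was not tested.

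The gene lies on chromosome 7, 80094846 to 80115392, minus strand, and shares 1831 bases with Gm45203 on the same strand. Its promoter is shown because Idh2 was the only one of the 5 genes that rose against SL in all 4 media. The window is chr7:80115351-80115600 (minus strand) and capitals mark the one CCAAT box, 44 bases before the RefSeq start. The GENCODE gene begins at 80115392 on this strand, inside the window, so the distance depends on the start used.
Idh2: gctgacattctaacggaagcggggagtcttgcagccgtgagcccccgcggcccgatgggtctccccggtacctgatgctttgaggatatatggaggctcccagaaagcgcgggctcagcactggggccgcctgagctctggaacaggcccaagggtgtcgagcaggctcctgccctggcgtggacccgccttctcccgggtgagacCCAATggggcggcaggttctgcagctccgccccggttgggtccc
It holds 17 CpG dinucleotides and neither the E-box nor the TATA box. The CRE, TGACGTCA, was also not matched in it, and 1.55% of windows hold that form. AAGGTCA, a form bound by ESRRB, occurs in 4.08% of windows and was matched in none of the 5 genes. CTTTGAT, a form bound by TCF and LEF factors, occurs in 3.205% and was likewise matched in none. The Tdg window holds a CRE, an E-box and, on the opposite strand, a CCAAT box. It also holds TTCNNNGAA, a form bound by STAT factors, 163 bases before the RefSeq start. That form occurs in 7.02% of windows and was not matched in the other genes. The Tet3 window holds a CCAAT box on the opposite strand. It spans chr6:83441679-83441928 and lies inside the GENCODE gene, which begins at 83459084 on the minus strand.

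Idh2 was among the most changed of the listed genes of 2-oxoglutarate supply and use, of which 29 of 33 were in the usable lines and tested. In size of increase over SL it ranked 1 of 29 in LCDM, 2 in A2iL, 1 in 2iL-F and 2 in 2iL. Gene and list were chosen with earlier results of these data known, so these ranks are descriptions. Of the 29, 22 were higher and 1 lower in LCDM, 13 and 5 in A2iL, 14 and 8 in 2iL-F, and 21 and 3 in 2iL. The medians were 0.37, 0.15, 0.14 and 0.40, against 0.00, -0.07, -0.08 and -0.04 over all lines. Idh1, the cytosolic counterpart, had 84.0 ± 0.527 TPM in LCDM, 87.8 ± 0.395 in A2iL, 129 ± 3.47 in 2iL-F, 125 ± 13.7 in 2iL and 38.3 ± 1.28 in SL. Idh2 over Idh1 was 1.64 and 1.56 in LCDM, 0.908 and 0.963 in A2iL, 1.54 and 1.45 in 2iL-F, 2.20 and 2.15 in 2iL, and 1.11 and 1.13 in SL, so the pair was near equal in A2iL and SL and tilted to the mitochondrial form in the others.

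The NAD-dependent mitochondrial isocitrate dehydrogenase of the citric acid cycle had smaller differences from SL than Idh2 in every medium. Idh3a, its catalytic subunit, rose against SL by 0.30 in LCDM and by 0.32 in 2iL and did not pass in A2iL (-0.15) or 2iL-F (-0.11), and Idh3g rose by 0.26 to 0.49 in the 4 media. Gpt2, a mitochondrial alanine aminotransferase that uses or makes 2-oxoglutarate, followed the order of Idh2, with 51.6 ± 0.405 TPM in LCDM, 32.7 ± 1.80 in A2iL, 59.7 ± 0.304 in 2iL-F, 185 ± 4.41 in 2iL and 17.4 ± 1.96 in SL. Adhfe1, a mitochondrial transhydrogenase that pairs 2-oxoglutarate with 2-hydroxyglutarate, rose by 0.90 to 1.61 from a level near the floor, 0.264 and 0.356 TPM in SL. Enzymes that use 2-oxoglutarate in the cycle were mixed. Ogdh, the first subunit of the 2-oxoglutarate dehydrogenase complex, rose by 0.72 in LCDM, 0.16 in A2iL and 0.24 in 2iL, while its partner Dlst fell by 0.30 in A2iL and by 0.46 in 2iL-F.

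**Figure D4:**
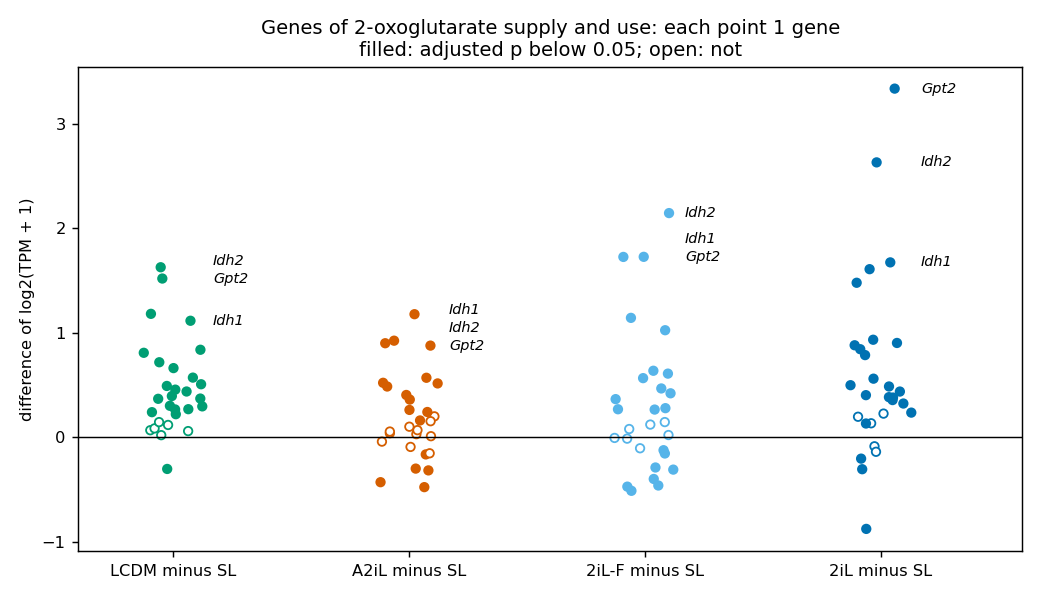
Difference of log2(TPM + 1) from SL (vertical axis) for the 29 tested genes of 2-oxoglutarate supply and use in LCDM, A2iL, 2iL-F and 2iL, each point 1 gene; filled points have an adjusted p below 0.05 in limma, and sideways scatter within a column has no meaning. Idh2 is the highest point in LCDM and 2iL-F and the second highest in A2iL and 2iL.

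The genes most like Idh2 over the 10 libraries were Wfdc2 (r = 0.997), Amt (r = 0.996) and Morc1 (r = 0.994). Morc1, which represses transposons in the male germline, averaged 38.3 TPM in LCDM, 25.0 in A2iL, 64.3 in 2iL-F, 94.4 in 2iL and 8.47 in SL. Amt, the aminomethyltransferase of the mitochondrial glycine cleavage system, averaged 82.0 TPM in LCDM, 64.5 in A2iL, 103 in 2iL-F, 125 in 2iL and 40.8 in SL. These correlations rest on 5 conditions with 2 libraries each and are descriptions.

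Of 12 listed genes of methylation writing and maintenance, all tested, 3 were higher and 5 lower than in SL in LCDM, 4 and 5 in A2iL, 3 and 4 in 2iL-F, and 3 and 7 in 2iL, with medians of -0.05, 0.05, -0.10 and -0.39 against 0.00, -0.07, -0.08 and -0.04 over all lines. Both Dnmt1 and Uhrf1 rose in all 4 media. Dnmt1, the maintenance methyltransferase, rose by 0.74 in LCDM, 0.36 in A2iL, 0.56 in 2iL-F and 0.86 in 2iL. Uhrf1, which recruits it, rose by 1.02 in LCDM, 0.49 in A2iL, 1.29 in 2iL-F and 1.35 in 2iL. These are RNA values and measure neither the proteins nor the maintenance of methylation. Dnmt3a, a de novo methyltransferase, fell in all 4, with changes of -1.16 in LCDM, -1.85 in A2iL, -3.27 in 2iL-F and -3.39 in 2iL. Dnmt3b, the other de novo methyltransferase, had 53.6 ± 2.51 TPM in LCDM, 96.9 ± 3.20 in A2iL, 21.7 ± 1.03 in 2iL-F, 8.28 ± 0.777 in 2iL and 216 ± 2.22 in SL. In A2iL, where Tet3 was lowest, Dnmt3b was the highest of the serum-free conditions. In 2iL-F and 2iL, where Dnmt3b was lowest, Tet3 was not told apart from its SL level. SL itself had the highest Dnmt3b (216 TPM) with Tet3 at 2.92 TPM. Dnmt3a, unlike Dnmt3b, was lower in A2iL (11.0 TPM) than in LCDM (18.4 TPM). A relation of Tet3 to these genes was not tested.

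The comparison of 2iL-F with 2iL holds the medium constant, with feeder labels that the fibroblast markers contradict. Of the 5 genes 4 were called, 1 higher and 3 lower in 2iL-F, against 61.7% of all lines (29.2% higher, 32.5% lower). Gadd45b was lower in 2iL-F, at 0.353 times its 2iL mean (-1.48 ± 0.07, adjusted p = 5.92e-07, limma). Gadd45g was higher in 2iL-F, at 1.71 times (0.77 ± 0.09, adjusted p = 0.000126), and Idh2 was lower, at 0.712 times. Tet3 differed by 0.04, with a 95% interval of -0.16 to 0.24. Summed fibroblast markers were 3220 to 3386 TPM in 2iL-F and 391 to 426 in 2iL. Of the 2iL sums, Fn1, which stem cells also express, made up 386 and 420 TPM. What part fibroblast RNA has in these differences was not tested.

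LCDM and A2iL, which lacked PD0325901, were lower than the conditions with it for most of the 5 genes. They also held Dim and Mih or CGP77675, which cannot be told apart from the lack of PD0325901. Against 2iL, 4 of 5 genes were lower in LCDM and 0 higher (62.3% of lines called, 34.3% higher and 28% lower), and 3 were lower in A2iL and 0 higher (69.5%, 33.2% and 36.2%). Gadd45b in A2iL was 0.119 times its 2iL mean (95% interval -3.17 to -2.83 on the log2 scale, adjusted p = 4.38e-09), the largest difference of the 5 genes over the 10 comparisons. Against 2iL-F, LCDM had 1 gene higher and 4 lower (59.5%, 32.3% and 27.2%), and A2iL 4 lower and 0 higher (45.3%, 22.2% and 23%). LCDM had 3 genes higher than A2iL and 1 lower (54%, 31.1% and 22.9%). Here Gadd45b (0.67 ± 0.07, adjusted p = 9.96e-05) and Idh2 (0.70 ± 0.07, adjusted p = 5.52e-05) were higher in LCDM and Gadd45g lower (-1.43 ± 0.09, adjusted p = 4.86e-06), with fibroblast marker sums of 619 to 635 TPM in LCDM and 1892 to 1956 in A2iL.

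**Figure D5:**
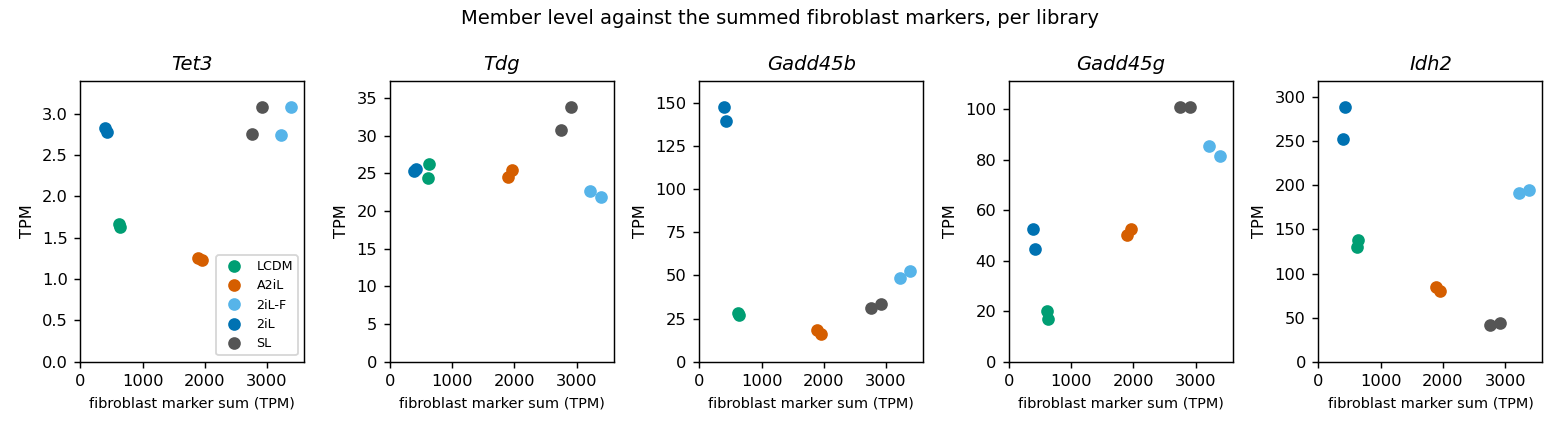
TPM of each gene (vertical axes) against the summed TPM of 15 fibroblast markers (horizontal axis) in the 10 libraries, coloured by condition. Libraries of 2iL, at sums of 391 and 426, of which Fn1 was 386 and 420, hold the highest Gadd45b and Idh2. The 2iL-F libraries, at 3220 and 3386, hold the next highest of both genes.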

How the data were processed

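Per the labels' protocols, a Qiagen kit served for RNA and NEBNext Ultra for the libraries. Per the submitters' processing notes, the authors aligned reads to mm10 with Bowtie2 and quantified them with RSEM, and R 3.4.2 is also named. The authors deposited TPM, 1 column per library, and the listed values of a library sum to 71.0% to 73.0% of the full TPM total.

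Symbols were used in the upper part of the table, where values on a symbol's own line separated 219 members of broadly expressed gene families from 50 of tissue-restricted ones with an area under the curve of 0.997. In the lines below this was 0.586, and 0.955 for the value 1 line lower. The members and gene lists were chosen with earlier results of these data known. Genes named are the members, the members of fixed lists, and for each member the 3 most correlated genes with a mean of at least 5 TPM; a few of these are not reported here.

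Log2(TPM + 1) values of lines with at least 1 TPM in 2 or more libraries (14578, of which 7962 nameable, all 5 members included) went into limma 3.58.1 (R 4.3.3) with a mean per condition, all 10 libraries, no covariate and eBayes with trend, leaving 5 residual degrees of freedom. Two-sided p-values were Benjamini-Hochberg adjusted over all lines tested within each of the 10 comparisons. Each of these was varied in turn: the pseudocount (0.1), the filter (none, or 5 TPM), scaling (median of ratios), the libraries fitted (the 4 compared, or leaving 1 out) and a term for replicate number. Fits to the upper part alone, and leaving out both 2iL-F and 2iL, were chosen after seeing the data. Coordinates are those of mm10 (GENCODE vM21), promoters are from RefSeq (GRCm38.p6; 5 of 5 genes matched), and near-identical transcripts were sought with blastn 2.17.0. Figures used matplotlib 3.10.9.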

Additional observations from a re-analysis of the deposited data

How the results depend on the processing

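The number of the 5 genes called in each comparison stayed within 1.5 times its value under all 129 alternative values, as did all 118 alternative counts of called lines. For counts of 3 to 5 genes, the loss of a single gene always stays within that limit. The count in A2iL against 2iL, for example, went from 3 to 2 with the 5 TPM filter. The limit is therefore a weak check of the gene counts. Of 555 alternative values of single genes, 512 kept direction and call. Calls of the other listed genes were not checked in this way, so their small changes are less certain. The 28 lost calls concerned Gadd45b in LCDM against SL, Gadd45g in 2iL-F against SL, Tet3 in LCDM against A2iL, and Tdg in 2iL-F against 2iL and in LCDM against 2iL-F. Tdg in A2iL against 2iL-F was gained with median-of-ratios scaling (adjusted p = 0.0442) and in the fit of the 4 libraries alone (adjusted p = 0.0363). In the fit of 4 libraries, Tet3 in LCDM against A2iL had an adjusted p of 0.0899 and Tdg in 2iL-F against 2iL one of 0.0707, and without the libraries labelled 2iL-F and 2iL that of Tet3 was 0.072. The cause was not tested. Tet3 was not tested with the 5 TPM filter.

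The 13 values that changed sign were all of log2 differences not called either way. With 1 library left out, Tet3 was -0.10356 to 0.020847 in 2iL against SL, -0.064414 to 0.059988 in 2iL-F against SL and -0.022131 to 0.10041 in 2iL-F against 2iL. Tdg was -0.035641 to 0.069334 in LCDM against A2iL, -0.058648 to 0.046326 in LCDM against 2iL and -0.050945 to 0.00493 in A2iL against 2iL, and Gadd45g -0.030114 to 0.19305 in A2iL against 2iL. With median-of-ratios scaling, Tet3 was 0.057148 in 2iL-F against SL, and Tdg -0.059275 in LCDM against A2iL and 0.0046317 in A2iL against 2iL.

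The replicate numbers 3 and 5 are not explained in the labels, and deviations of same-numbered libraries correlated at -0.131 to 0.0746, so they were not taken as pairs. With a replicate block, 3 genes rather than 4 were called in LCDM against A2iL (Tet3, adjusted p = 0.0665) and 4 rather than 5 in LCDM against 2iL-F (Tdg, adjusted p = 0.0548), and no other call of the 5 genes changed. Lines called in 2iL against SL numbered 11241 with it and 11321 without. With no read numbers, precision at the low TPM of Tet3 is unknown.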

Other observations

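Of 28 listed partners and regulators of TET and TDG 18 were in the usable lines and tested, and against SL 5 were higher and 5 lower in LCDM, 4 and 5 in A2iL, 3 and 6 in 2iL-F, and 2 and 12 in 2iL, with medians of -0.07, -0.09, -0.07 and -0.23 against 0.00, -0.07, -0.08 and -0.04 over all lines. The shares of all lines lower than in SL were 33.7% in LCDM, 31.9% in A2iL, 37.3% in 2iL-F and 40.9% in 2iL. Ogt, the O-GlcNAc transferase that binds TET proteins, had 22.1 ± 1.35 TPM in LCDM, 26.1 ± 1.61 in A2iL, 23.1 ± 0.980 in 2iL-F, 11.9 ± 2.03 in 2iL and 23.4 ± 0.492 in SL, and in 2iL it changed by -0.94 ± 0.10 on the log2(TPM + 1) scale (adjusted p = 3.69e-05, limma). Sirt3, the mitochondrial deacetylase known to activate the IDH2 enzyme, rose with Idh2 in all 4 media, by 1.34 in LCDM, 0.58 in A2iL, 0.52 in 2iL-F and 1.32 in 2iL. Its order across media differed from that of Idh2, since it had 10.9 ± 0.0130 TPM in LCDM and 5.72 ± 0.429 in 2iL-F.

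SUMO modification is known to release TDG from its product. Sumo2, a SUMO protein, fell against SL by 0.33 in A2iL, 0.38 in 2iL-F and 0.22 in 2iL and did not pass in LCDM (-0.12). Uhrf2, a reader of 5-hydroxymethylcytosine, fell in all 4, by 0.28 in LCDM, 0.27 in A2iL, 0.57 in 2iL-F and 0.21 in 2iL. Apobec3, a cytidine deaminase, rose by 0.92 in LCDM, 0.79 in A2iL, 1.13 in 2iL-F and 0.91 in 2iL.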
